A study of Homo sapiens with 6 samples.

Results

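The genes described here are the apolipoprotein genes of the liver together with MTTP, whose protein loads lipid onto apolipoprotein B. The members were chosen by symbol, as the genes of the authors' count table named APOB, MTTP, APOE, APOC1, APOC3, APOA1, APOA2, APOM, APOH and APOA4. All 10 were found among the 20332 genes of that table, and 9 of them were among the 12941 genes with enough counts to be tested. APOA4 was the member left out by the filter on low counts.

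Polyadenylated RNA was sequenced from Huh-7, an established human hepatocellular carcinoma cell line. In the RAC3 group (3 samples) the cells stably overexpressed RAC3, a small GTPase, after lentiviral transduction, and in the NC group (3 samples) they were the negative control, with the genotype label WT. The study compared the groups to find genes whose expression differs with RAC3. How many clones each group came from is not given in the sources used here. The genotype labels of RAC3 replicates 2 and 3 read RAC4 and RAC5 overexpression, whereas the titles name RAC3, and the samples were grouped by title. The study describes the 3 samples of each group as independent RNA samples but does not say that they came from separate cultures, so the p-values measure only the spread between these samples, which may be technical.

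Apolipoproteins are amphipathic proteins that hold the lipid of lipoprotein particles in solution, and hepatocytes secrete most of them into blood. In the endoplasmic reticulum, microsomal triglyceride transfer protein lipidates apolipoprotein B, which stays with its particle for life, while the smaller apolipoproteins exchange between particles, steer lipases and bind receptors. Apolipoproteins A-I and A-II are the main proteins of high-density lipoprotein.

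NC replicates 1, 2 and 3 had 14368764, 15269997 and 18199888 counts on genes, and RAC3 replicates 1, 2 and 3 had 17332318, 16225766 and 13855762. Where a sample has no read of a gene, a true value of up to 3 counts is possible, or 0.165 to 0.217 CPM (normalised read counts relative to library size) in these samples, a limit that covers counting error only. All CPM values below were scaled by edgeR's TMM method, and they compare samples for 1 gene. RAC3 itself (ENSG00000169750) stood at 35.6, 31.3 and 32.8 CPM in the NC samples and at 233, 239 and 225 CPM in the RAC3 samples. Each RAC3 sample, including those labelled RAC4 and RAC5, was therefore far above every NC sample (log2 fold change 2.81, SE 0.0574, adjusted p = 9.64e-18).

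Of the 9 members tested, 6 had an adjusted p under 0.05, against 28.5% of all genes tested. APOB and MTTP rose with RAC3, where 13.3% of all genes were called higher. APOE, APOC1, APOC3 and APOA2 fell, where 15.3% of all genes were called lower. APOA1, APOM and APOH did not pass the test. The study's own thresholds, a fold change above 1.5 with an unadjusted p under 0.05, were met by 4.68% of all genes and by 0 of the 9 members with edgeR, DESeq2 or limma-voom, although 6 members had an unadjusted p under 0.05 with edgeR. Leaving out 1 sample or changing the filter on low counts brought APOA2 or APOC3 past them, as given with those genes. The CPM values of the groups did not overlap for 7 members (the 6 called and APOM), against 42.5% of all genes. The median log2 fold change was -0.27 over the members tested, with 3 positive and 6 negative, and 0.0036 over all genes tested. In these bulk samples, fewer cells of a type and less RNA per cell cannot be told apart.

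**Figure D1:**
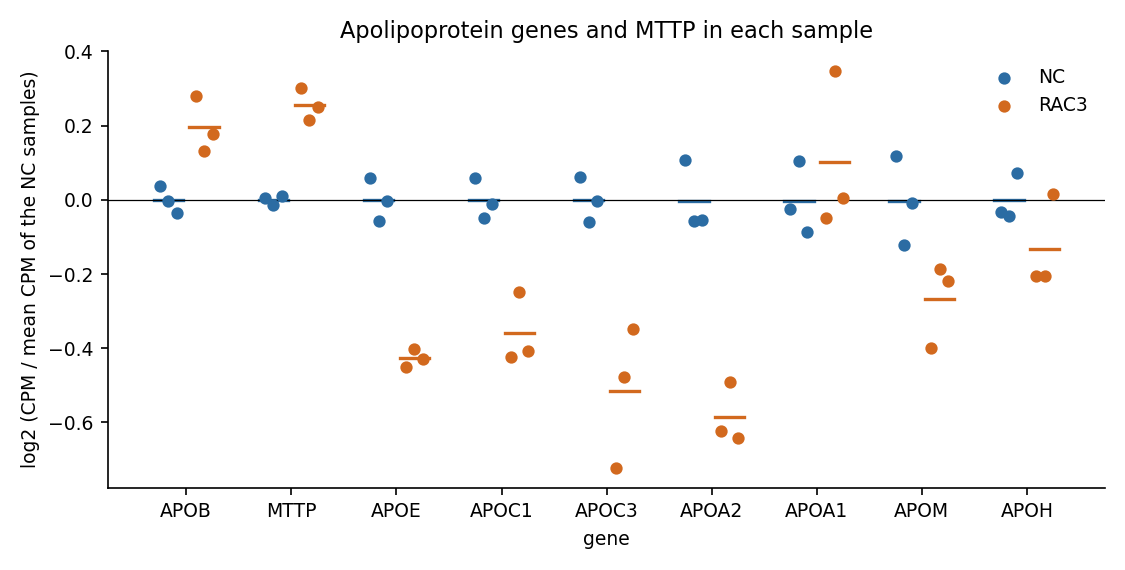
Each point is a sample's CPM for 1 gene on a log2 scale relative to the mean of the NC samples, and each short line is a group's mean. APOB (749 to 830.4 CPM with RAC3) and MTTP (208 to 220.4 CPM) lie above every NC sample, and APOE, APOC1, APOC3, APOA2 and APOM lie below every NC sample.

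APOB and MTTP were the members that rose with RAC3. APOB (ENSG00000084674, chr2:21001429-21044073, minus strand) encodes the scaffold protein of very-low-density and low-density lipoprotein. Its values were 702, 683 and 667 CPM in NC replicates 1, 2 and 3 and 830.4, 749 and 773 CPM in RAC3 replicates 1, 2 and 3. All RAC3 samples were above all NC samples, with RAC3 replicate 1 the highest of the 6. The means were 684 ± 17.4 CPM in NC and 784 ± 41.7 CPM in RAC3 (SD, n = 3), so APOB rose by 14.7% (log2 fold change 0.20, SE 0.0419, adjusted p = 0.00162).

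MTTP (ENSG00000138823, chr4:99563761-99623999, plus strand) encodes the large subunit of the microsomal triglyceride transfer protein. It stood at 179, 177 and 180.1 CPM in the NC samples and at 220.4, 208 and 213 CPM in the RAC3 samples. The NC values were nearly level, and the lowest RAC3 sample lay well above them. MTTP rose from 179 ± 1.53 to 214 ± 6.44 CPM (SD, n = 3), by 19.5% (log2 fold change 0.26, SE 0.0440, adjusted p = 0.000247). P4HB, whose protein disulfide isomerase is the other subunit of the transfer protein, was named after its values were seen, and its groups overlapped at 1139 ± 27.7 and 1123 ± 47.8 CPM (log2 fold change -0.020, adjusted p = 0.743). Its sign turned when RAC3 replicate 1 was left out (0.015), and with the GC trend of each library removed P4HB was called higher (0.12).

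The exchangeable apolipoproteins of the chromosome 19 cluster were lower with RAC3. APOE (ENSG00000130203, chr19:44905754-44909393, plus strand) encodes a protein that binds receptors for remnant particles. Its values were 539.8, 498 and 517 CPM in the NC samples and 379, 392 and 385 CPM in the RAC3 samples. The RAC3 samples lay close together, and the gap to the lowest NC sample was larger than the spread within either group. APOE fell from 518 ± 21.2 to 385 ± 6.24 CPM (SD, n = 3), a change of -25.6% (log2 fold change -0.43, SE 0.0409, adjusted p = 4.4e-07).

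APOC1 (ENSG00000130208, chr19:44914247-44919349, plus strand) lies next to APOE and encodes a small protein that exchanges between lipoproteins and inhibits cholesteryl ester transfer protein. It stood at 89.4, 82.9 and 85.0 CPM in the NC samples and at 64.0, 72.2 and 64.7 CPM in the RAC3 samples. RAC3 replicate 2 was the closest to the controls but stayed below all of them. APOC1 fell from 85.8 ± 3.28 to 67.0 ± 4.52 CPM (SD, n = 3; log2 fold change -0.36, SE 0.0604, adjusted p = 0.000223).

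APOC3 (ENSG00000110245, chr11:116829706-116833072, plus strand) encodes an inhibitor of lipoprotein lipase and of the uptake of remnant particles. Few reads were behind its values, with 96, 95 and 118 counts in the NC samples and 71, 78 and 73 in the RAC3 samples. These counts gave 6.87, 6.32 and 6.58 CPM in NC and 3.99, 4.73 and 5.17 CPM in RAC3. The groups did not overlap, and RAC3 replicate 1 was the lowest sample. APOC3 fell from 6.59 ± 0.276 to 4.63 ± 0.597 CPM (SD, n = 3; log2 fold change -0.51, SE 0.171, adjusted p = 0.0304).

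The call on APOC3 held in only 9 of 19 alternatives, over which its log2 fold change ran from -0.60 to -0.34 and its adjusted p from 0.0148 to 0.184. It was lost with DESeq2, with the GC or length trend removed, and without NC replicate 1 (-0.49), NC replicate 2 (-0.55), NC replicate 3 (-0.52), RAC3 replicate 1 (-0.41) or RAC3 replicate 2 (-0.53). Its sign was negative in all 19, and without RAC3 replicate 3 (-0.60) it passed the study's thresholds.

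Among the apolipoproteins of high-density lipoprotein, APOA2 fell and APOA1 did not pass the test. APOA2 (ENSG00000158874, chr1:161222292-161223631, minus strand) encodes apolipoprotein A-II. Its values were 123, 109.6 and 109.8 CPM in the NC samples and 74.0, 81.1 and 73.1 CPM in the RAC3 samples. NC replicate 1 was the highest of all, and every RAC3 sample was below every NC sample. APOA2 fell from 114 ± 7.56 to 76.1 ± 4.41 CPM (SD, n = 3), a change of -33.2% (log2 fold change -0.58, SE 0.0602, adjusted p = 1.18e-06). This was the most negative log2 fold change among the members tested and lay just short of a fold of 1.5, which is 0.585 on the log2 scale. It passed that fold without NC replicate 2 (-0.62), NC replicate 3 (-0.62) or RAC3 replicate 2 (-0.63), and narrowly with no filter on low counts or with at least 10 counts required in every sample (-0.59 in each).

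APOA1 (ENSG00000118137, chr11:116835751-116837950, minus strand) encodes apolipoprotein A-I, the activator of lecithin-cholesterol acyltransferase. It stood at 9.38, 10.2 and 8.97 CPM in the NC samples and at 9.22, 12.1 and 9.57 CPM in the RAC3 samples. The groups overlapped, and RAC3 replicate 2 stood apart above the others. The means were 9.53 ± 0.653 and 10.3 ± 1.59 CPM (SD, n = 3; log2 fold change 0.12, SE 0.137, adjusted p = 0.567), and the log2 fold change turned to -0.020 without RAC3 replicate 2.

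APOM (ENSG00000204444, chr6:31652416-31658210, plus strand) encodes the lipocalin that carries sphingosine-1-phosphate on high-density lipoprotein. Its values were 3.22, 2.73 and 2.95 CPM in the NC samples and 2.25, 2.61 and 2.55 CPM in the RAC3 samples. All RAC3 samples were below all NC samples, by a narrow margin between NC replicate 2 and RAC3 replicate 2. The means were 2.97 ± 0.247 and 2.47 ± 0.193 CPM (SD, n = 3), and APOM did not pass the test (log2 fold change -0.27, SE 0.239, adjusted p = 0.442). APOM overlaps BAG6 on the opposite strand, a gene of far higher counts that fell from 296 ± 15.6 to 245 ± 7.83 CPM (log2 fold change -0.27, adjusted p = 0.000244). The log2 fold change was -0.11 for BAG6 and -0.23 for APOM with the GC trend removed. Whether the authors' counting used strand is not given in the sources used here, so reads of both genes cannot be told apart at APOM.

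APOH (ENSG00000091583, chr17:66212033-66256525, minus strand) encodes beta-2-glycoprotein I, a plasma protein that binds phospholipid. It stood at 45.1, 44.8 and 48.5 CPM in the NC samples and at 40.05, 39.996 and 46.6 CPM in the RAC3 samples. RAC3 replicates 1 and 2 were below all controls, while RAC3 replicate 3 lay among them. The means were 46.1 ± 2.04 and 42.2 ± 3.82 CPM (SD, n = 3; log2 fold change -0.13, SE 0.0726, adjusted p = 0.185). With the GC trend removed, APOH was called lower (log2 fold change -0.22, adjusted p = 0.0259, where the adjusted p over its alternatives ran from 0.0201 to 0.542). The log2 fold change of APOH ran from -0.21 to -0.096 over leave-one-out fits and from -0.22 to -0.065 over all 19 alternatives.

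APOA4 (ENSG00000110244, chr11:116820700-116823306, minus strand) encodes apolipoprotein A-IV, made mainly by the intestine in humans. Its counts were 1, 7 and 6 in the NC samples and 6, 0 and 6 in the RAC3 samples. Values at or below the limit that a count of 0 allows occurred in both groups, and a difference was not detectable at this depth.

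The members' levels spanned a wide range on the authors' FPKM scale (fragments relative to gene length and library size), which allows genes of different length to be compared. In the NC samples the mean FPKM ran from APOE at 444 ± 15.9, APOA2 at 236 ± 13.9 and APOC1 at 179.7 ± 15.8 to APOB at 47.6 ± 0.812, MTTP at 46.4 ± 0.380 and APOH at 43.5 ± 1.82 (SD, n = 3). Lower in the same order came APOC3 at 12.8 ± 0.363 FPKM, APOA1 at 10.3 ± 0.671 FPKM, APOM at 3.89 ± 0.279 FPKM and APOA4 at 0.194 ± 0.135 FPKM. No neighbours in this order overlapped between samples, although APOB and MTTP came close, with 46.8 FPKM as the lowest NC sample of APOB and 46.7 FPKM as the highest of MTTP. In this line APOA1 therefore had a far lower FPKM than APOA2, APOE or APOC1.

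In the RAC3 samples the order of the mean FPKM differed at 2 places. MTTP at 58.1 ± 1.66 FPKM came before APOB at 56.7 ± 3.32 FPKM, with overlapping samples, and APOA1 at 11.5 ± 1.63 FPKM came before APOC3 at 9.16 ± 1.16 FPKM, without overlap. APOE stayed first at 344 ± 4.35 FPKM, followed by APOA2 at 165 ± 9.02 FPKM and APOC1 at 140.2 ± 14.6 FPKM. The remaining levels were 38.7 ± 4.46 FPKM for APOH, 3.32 ± 0.257 FPKM for APOM and 0.176 ± 0.156 FPKM for APOA4. The length implied by count and FPKM varied between samples for APOC1 (451 to 504 bases), APOC3 (470 to 528 bases) and APOH (1005 to 1144 bases), so FPKM and CPM do not move strictly together for these members.

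**Figure D2:**
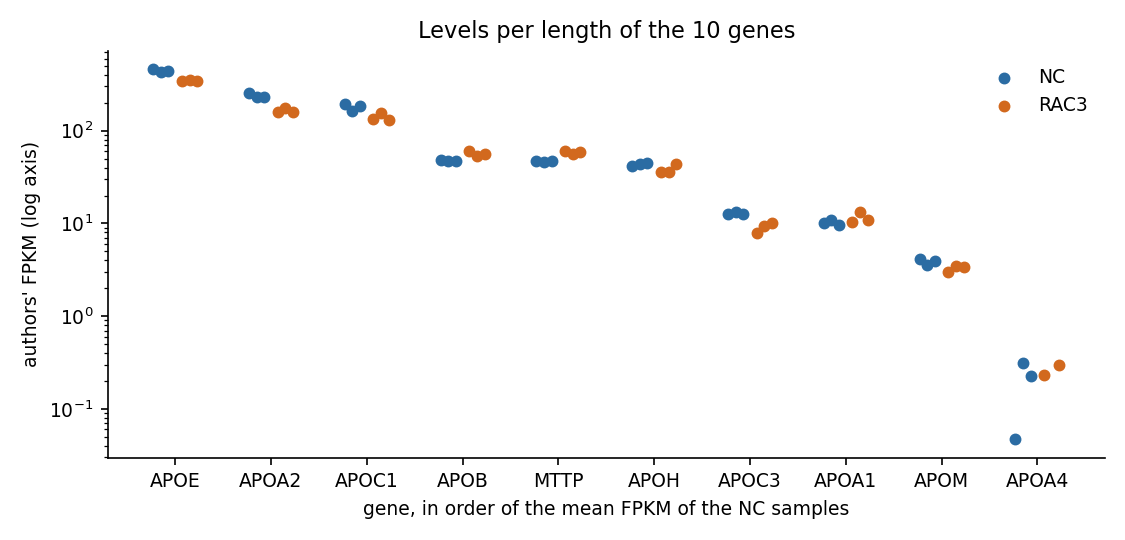
Each point is a sample's FPKM, as the authors computed it, on a log axis, with the members in order of the NC mean; the RAC3 replicate at 0 FPKM for APOA4 is not drawn. APOE (444 FPKM in NC and 344 FPKM in RAC3) is highest, and APOA4 is near the floor.

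The members' summed counts overlapped between the groups while single members differed. They made up 0.165%, 0.159% and 0.160% of all counts in the NC samples and 0.167%, 0.159% and 0.160% in the RAC3 samples (p = 1.00 in a two-sided exact permutation test, where this design can reach 0.10 at best). APOB and APOE together made up 72.8% to 74.5% of the members' counts, so the sum mostly sets the rise of APOB against the fall of APOE. The ratio of APOB to APOE counts was 1.3002, 1.37 and 1.29 in NC and 2.19, 1.91 and 2.01 in RAC3. Every RAC3 sample had a higher ratio than every NC sample, as a description of genes chosen after their values were seen. The ratio of MTTP to APOB counts, 0.255, 0.259 and 0.270 in NC and 0.265, 0.277 and 0.275 in RAC3, overlapped between the groups.

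The neighbours APOC1 and APOE had a count ratio of 0.166, 0.167 and 0.165 in NC and 0.169, 0.184 and 0.168 in RAC3. These ratios were slightly above the controls in each RAC3 sample, with RAC3 replicate 2 the farthest. The ratio of APOA1 to APOA2 counts was 0.0764, 0.0935 and 0.0817 in NC and 0.125, 0.1496 and 0.131 in RAC3. The ratio of APOC3 to APOA1 counts was 0.733, 0.617 and 0.733 in NC and 0.433, 0.390 and 0.541 in RAC3. Neither of the last pair of ratios overlapped between the groups, and none of these ratios was tested.

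The members called in opposite directions also differed in base composition and length. The longest annotated transcripts of the members that rose had a GC content of 42.1% to 43.5% and a length of 4092 to 14121 bases. Those of the members that fell had 54.2% to 68.5% GC and 604 to 1208 bases, and the remaining members lay between 42.9% and 62.7% GC. Over all genes tested, the median log2 fold change went from 0.16 for transcripts under 40% GC to -0.19 for those over 60% GC. The direction of all 6 members called ran with that trend, while APOA1 at 62.7% GC and APOH at 42.9% GC had fold changes of the opposite sign to it. The part of base composition in these differences was not tested.

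Once the GC trend of each library was removed, 2684 of 12863 genes tested were called (1273 higher and 1411 lower). Of the 3691 genes called before, 1880 were among them. Among the members, APOH was then called lower and the call on APOC3 was lost (log2 fold change -0.51 before, -0.35 after). The other members' calls held at smaller fold changes. APOB went from 0.20 to 0.12 on the log2 scale (adjusted p = 0.024, where its alternatives ran from 9.85e-05 to 0.0316). MTTP went from 0.26 to 0.15 (adjusted p = 0.00583, where its alternatives ran from 1.37e-06 to 0.0097). APOE went from -0.43 to -0.17 (adjusted p = 0.00106, where its alternatives ran from 1.94e-21 to 0.00198). APOA2 went from -0.58 to -0.50, and APOC1 went from -0.36 to -0.25. The log2 fold change of APOA1 went from 0.12 to 0.30 and still did not pass the test (adjusted p = 0.111, where its alternatives ran from 0.0979 to 0.935).

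**Figure D3:**
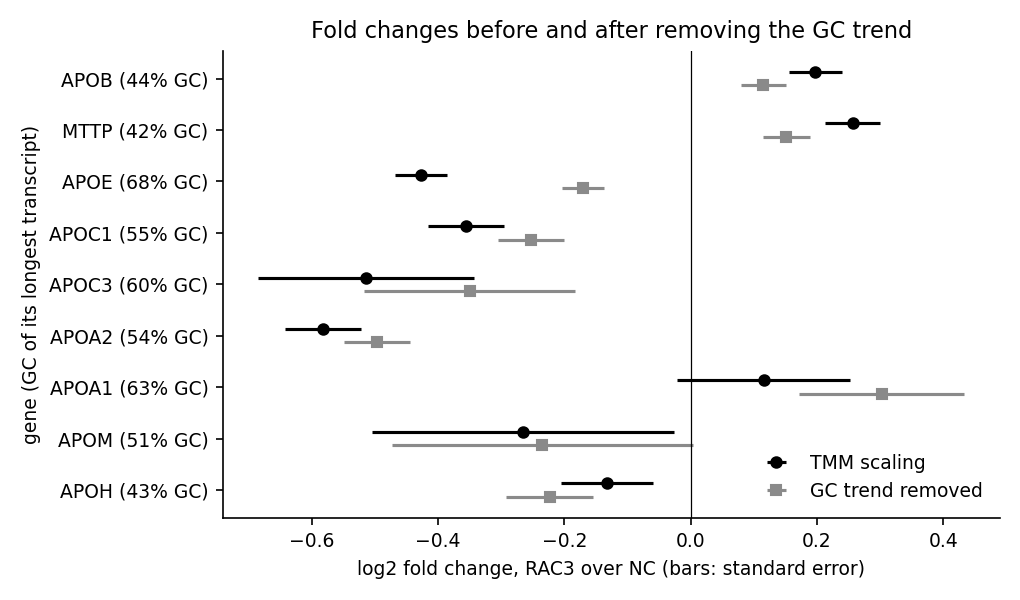
Points are log2 fold changes of RAC3 over NC with standard errors, before (circles) and after (squares) each library's GC trend was removed. APOE moves from -0.43 to -0.17 and APOA2 from -0.58 to -0.50, while APOB (0.12) and MTTP (0.15) stay above 0.

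By position in GENCODE release 29 on GRCh38, 5 members lie in a pair of clusters, APOE and APOC1 on chromosome 19 and APOA4, APOC3 and APOA1 on chromosome 11. Within 50 kb of APOE or APOC1, 5 other genes were tested, named here after their values were seen except for APOC2. Of these, 3 were called lower, where 15.3% of all genes tested were called lower. They were APOC2 (log2 fold change -0.41, adjusted p = 0.000116), APOC4-APOC2 (-0.44, adjusted p = 0.000901) and NECTIN2 (-0.18, adjusted p = 0.00437). APOC2, the activator of lipoprotein lipase, overlaps the readthrough gene APOC4-APOC2, so the split of reads between them is uncertain. With the GC trend removed, APOC2 was at -0.24 and APOC4-APOC2 at -0.35, and NECTIN2 lost its call (-0.023). TOMM40 (0.03 before, 0.17 after) and CLPTM1 (0.06 before, 0.20 after) were then called higher. Before the GC trend was removed, APOE, APOC1, APOC2, APOC4-APOC2 and NECTIN2 were called lower, whereas TOMM40 and CLPTM1 in the same stretch were not called. Within 50 kb of any member, 23 other genes were tested before that removal, with 0 called higher and 6 lower.

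Within 50 kb of the chromosome 11 members, 3 other genes were tested and 0 passed an adjusted or an unadjusted p of 0.05 with edgeR, or the adjusted p with DESeq2 or limma-voom. The members of this cluster themselves differed, with APOC3 lower, APOA1 not called and APOA4 too low to test. Other annotated genes overlap members as well, a further transcript on the strand of APOE and APOC1 and genes of the opposite strand on APOA1, APOA4, APOB and MTTP. TRMT10A overlaps the start of MTTP (log2 fold change 0.22, adjusted p = 0.208, and 0.035 with the GC trend removed). Reads of such overlapping genes, and of the APOC1 pseudogene APOC1P1, may have been counted with the member or apart from it.

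**Figure D4:**
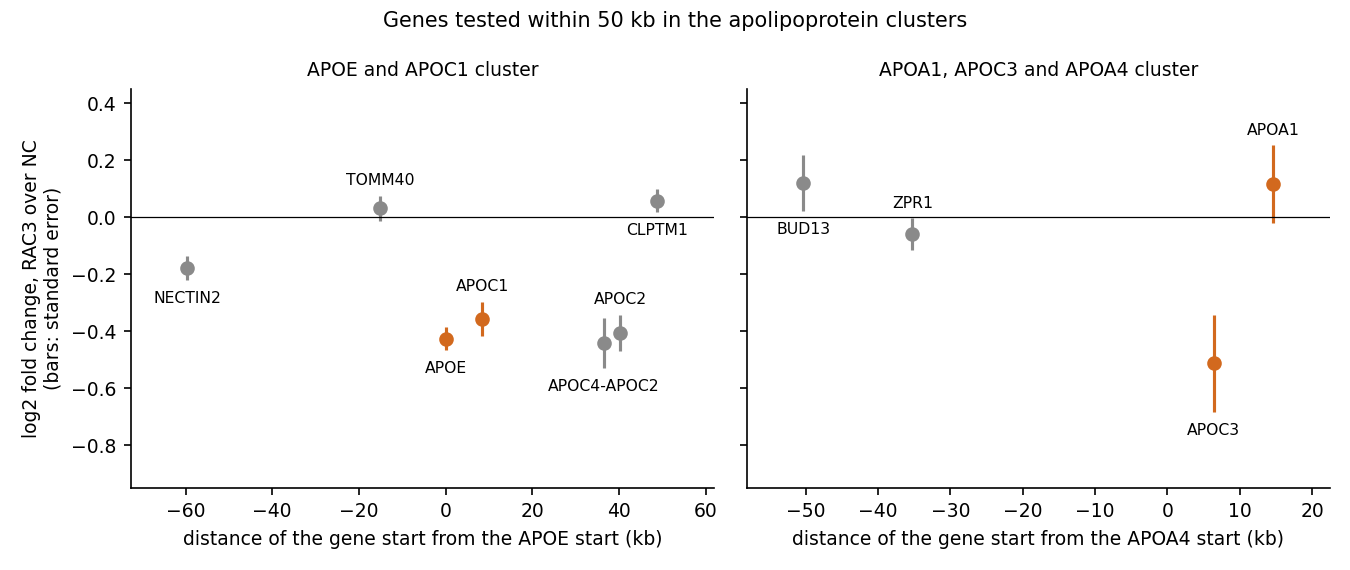
Log2 fold changes of RAC3 over NC with standard errors are plotted against the distance of each gene's start from the start of APOE (left) or APOA4 (right), members in orange and other tested genes in grey; SIK3, whose start is 275 kb away, is not drawn. APOE (-0.43), APOC1 (-0.36) and APOC2 (-0.41) are low, while TOMM40 (0.03) and CLPTM1 (0.06) on either side of them are near 0. NECTIN2 (-0.18), beyond TOMM40, is also below 0.

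Because members of the family moved together or apart, the RefSeq sequence before the start of transcription (GRCh38.p14) is shown for APOA2 and APOE, which fell, and MTTP, which rose. Windows of 250 bases before a start were found for 7 of the 10 members (10 windows), and APOA1, APOB and APOC3 are named only. Stretches inside annotated exons are left out. The stretches shown are chr1:161223632-161223878 on the minus strand for APOA2, chr19:44905546-44905753 on the plus strand for APOE and chr4:99574574-99574706 on the plus strand for MTTP, the last in an intron of MTTP before one of its RefSeq starts. Capitals mark a match to one of the motifs searched on both strands.
APOA2: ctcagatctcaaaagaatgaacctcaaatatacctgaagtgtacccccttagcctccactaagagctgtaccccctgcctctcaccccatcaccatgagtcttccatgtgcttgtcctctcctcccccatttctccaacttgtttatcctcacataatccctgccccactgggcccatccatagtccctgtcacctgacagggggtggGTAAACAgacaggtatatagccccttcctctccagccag
APOE: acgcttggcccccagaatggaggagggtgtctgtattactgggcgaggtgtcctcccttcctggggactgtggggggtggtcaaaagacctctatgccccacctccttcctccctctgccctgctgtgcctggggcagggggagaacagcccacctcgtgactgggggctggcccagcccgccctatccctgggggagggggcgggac
MTTP: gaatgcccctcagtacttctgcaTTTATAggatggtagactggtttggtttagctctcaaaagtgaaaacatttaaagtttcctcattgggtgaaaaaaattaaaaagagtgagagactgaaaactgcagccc

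The FOXA motif TGTTTAC was found in the APOA2 window as GTAAACA, with its first base 42 bases before the start, and 2.98% of 35116 promoter windows of the same length held it. The TATA box letters TATAAA were found in the MTTP window shown, as TTTATA on the other strand with its first base 227 bases before the start, where 10.7% of all windows held them. That MTTP window also held AGGTCA, the hexamer of nuclear receptors, as TGACCT 50 bases before the start and outside the stretch shown (12.1% of all windows). The HNF4 motif CAAAGTCCA (0.325% of all windows) was in no member's window. The other MTTP window (chr4:99563880-99564129) lies before another RefSeq start, inside the GENCODE gene and mostly in annotated exons. That window and the APOE windows held none of these letters, and a match or its absence describes only these windows.

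The other genes of lipoprotein biology were counted in lists of known function. Of 26 partners in lipoprotein assembly and secretion, all tested, 5 were called higher and 3 lower, with a median log2 fold change of 0.02, where 13.3% and 15.3% of all genes tested were called higher and lower. SAR1A (0.33, adjusted p = 0.000181) and SAR1B (0.23, adjusted p = 0.00778), GTPases of the coat that carries lipoproteins out of the endoplasmic reticulum, rose. MIA2 (0.20, adjusted p = 0.0318) and, named after their values were seen, MIA3 (0.15, adjusted p = 0.0459) and SMLR1 (0.86, adjusted p = 0.0454) rose too. SORT1, a sorting receptor that binds apolipoprotein B (-0.31, adjusted p = 0.00177), and DGAT1, which makes triglyceride (-0.21, adjusted p = 0.0453), fell. With the GC trend removed, SAR1B (0.089), MIA2 (0.047), MIA3 (0.032), SMLR1 (0.76) and DGAT1 (-0.010) lost their calls. Calls were also lost by SAR1B without NC replicate 2 (0.21) or RAC3 replicate 1 (0.18), by MIA2 without NC replicate 1, NC replicate 3, RAC3 replicate 1 or RAC3 replicate 3 (0.16 to 0.19), by MIA3 without any 1 of the 6 samples (0.10 to 0.18), by SMLR1 without any sample other than NC replicate 2 (0.73 to 0.97) and by DGAT1 without any other than NC replicate 3 (-0.22 to -0.15).

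Receptors and uptake genes, the other side of APOB and APOE biology, fell or did not pass the test. Of 16, 12 were tested, 6 were called lower and 0 higher with edgeR (0 also at an unadjusted p under 0.05, and with DESeq2 and limma-voom), and the median was -0.19. LRP1, a receptor for remnant particles, stood at 587, 558 and 521 CPM in NC and 461, 449.6 and 464 CPM in RAC3, and fell (log2 fold change -0.28, adjusted p = 0.000111). With the GC trend removed, 6 receptor genes were called lower and 2 higher, the median was -0.12 and the log2 fold change of LRP1 was -0.11.

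Of 19 lipases, lipid transfer proteins and lipid exporters, 12 were tested, 1 was called higher and 5 lower, with a median of -0.23. The hepatic lipase gene LIPC (-0.28, adjusted p = 0.000283), the endothelial lipase gene LIPG (-0.86, adjusted p = 2.29e-05) and the cholesterol exporter gene ABCG1 (-0.87, adjusted p = 0.00047) fell. LMF1 (-0.35, adjusted p = 0.0135) and ANGPTL4 (-0.93, adjusted p = 0.0398), named after their values were seen, fell, and PON2 (0.19, adjusted p = 0.041) rose. With the GC trend removed LMF1 (-0.16), ANGPTL4 (-0.72) and PON2 (0.13) lost their calls. ANGPTL4 was at -0.32 without NC replicate 1, whose 15.8 CPM was the highest of the 6 samples. Without single other samples, calls were lost by ANGPTL4 (NC replicate 2 or RAC3 replicate 1 or 2, -1.005 to -0.71) and by PON2 (NC replicate 1 or any RAC3 replicate, 0.098 to 0.22). LPL, the main target of APOC3, was at 3 counts or fewer in every sample.

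Of 18 other apolipoprotein genes, 7 were tested, 2 were called higher and 2 lower. APOC2 fell, as did CLU, the gene of apolipoprotein J (-0.26, adjusted p = 2.3e-05), while APOL2 (0.39, adjusted p = 0.00349) and APOL6 (1.23, adjusted p = 0.00898) rose. APOL6 lost its call without RAC3 replicate 2 (0.97).

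Of 32 transcription factors known to act on apolipoprotein genes, all tested, 5 were called higher and 13 lower, with a median of -0.18 (5 lower and a median of -0.06 with the GC trend removed). HNF4A, a main activator of APOB, MTTP, APOC3 and APOA1, was at 209.8 ± 15.9 CPM in NC and 213 ± 7.26 CPM in RAC3 with overlapping groups (log2 fold change 0.03, adjusted p = 0.752), and its sign turned without NC replicate 2 (-0.024). CEBPA (-0.48, adjusted p = 1.93e-06), SREBF2 (-0.38, adjusted p = 2.62e-06) and SREBF1 (-0.31, adjusted p = 2.17e-05) fell, and CEBPD (0.72, adjusted p = 3.93e-08) and CREB3L3 (0.46, adjusted p = 8.36e-05) rose. Removing the GC trend left CEBPA at -0.26, SREBF2 at -0.26 and SREBF1 at -0.12. Also called higher were HNF4G (0.37, adjusted p = 0.0166) and, named after their values were seen, NR2F2 (0.34, adjusted p = 0.0354) and ONECUT1 (0.22, adjusted p = 0.0376), all of which lost the call without RAC3 replicate 1 (0.33, 0.26 and 0.21). HNF4G also lost the call with the GC trend removed (0.20) and without NC replicate 1 (0.32). NR2F2 also lost the call without NC replicate 1, NC replicate 3 or RAC3 replicate 3 (0.22 to 0.32). ONECUT1 lost the call without any sample other than NC replicate 3 (0.17 to 0.23), although it was at 0.36 with the GC trend removed.

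**Figure D5:**
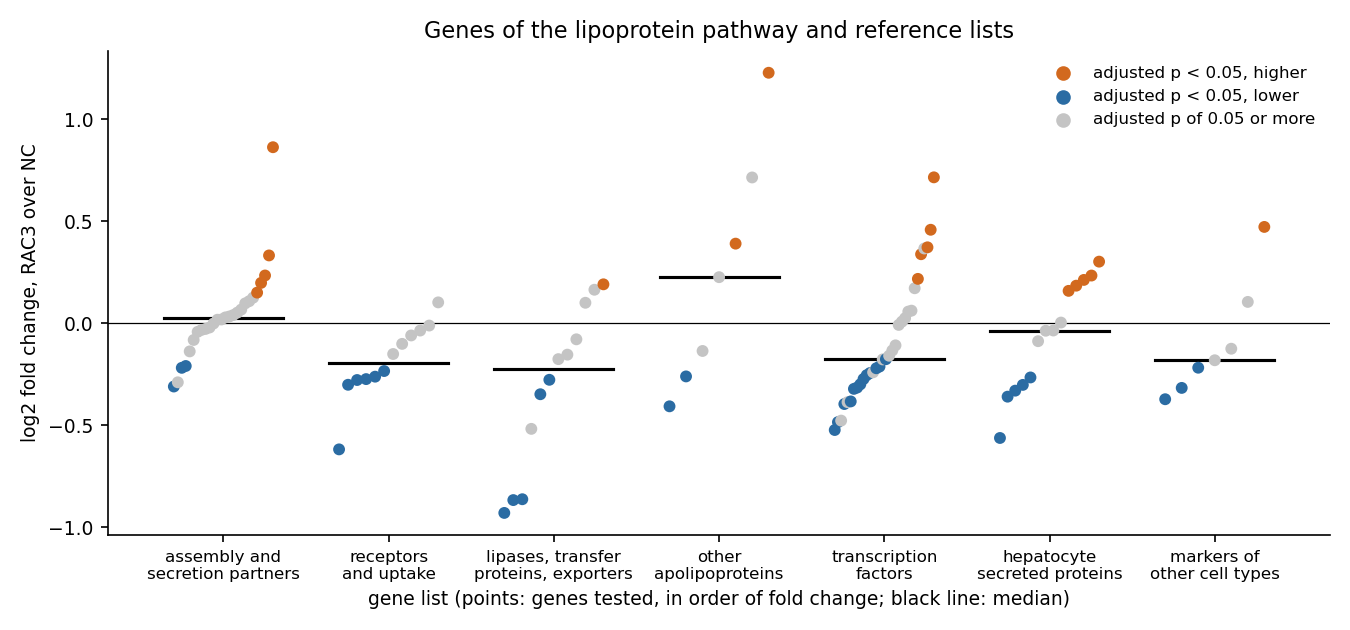
Each point is the log2 fold change of 1 tested gene, RAC3 over NC, grouped by list and coloured by call, and each black line is a list's median. The median is 0.02 for assembly partners, -0.19 for receptors and -0.23 for lipases and exporters.

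The hepatocyte character of the line was checked against other secreted proteins. Of 17 genes, 14 were tested, 5 were called higher and 5 lower, and the median was -0.04. ALB was at 2241, 2419 and 2439 CPM in NC and 2383, 2115 and 2186 CPM in RAC3, with overlapping groups (log2 fold change -0.09, adjusted p = 0.148). It was called lower with the GC trend removed (-0.20) and without NC replicate 1 (-0.13) or RAC3 replicate 1 (-0.14). Without RAC3 replicate 2, ALB was at -0.051. The fibrinogen genes FGA (0.21, adjusted p = 0.000389), FGB (0.30, adjusted p = 2.62e-05) and FGG (0.23, adjusted p = 0.00113) rose, as did AFP (0.16, adjusted p = 0.00885) and VTN (0.19, adjusted p = 0.00367). TF (-0.56, adjusted p = 1.2e-08), AMBP (-0.36, adjusted p = 2.18e-06), ITIH2 (-0.30, adjusted p = 0.000216), TTR (-0.26, adjusted p = 0.000762) and AHSG (-0.33, adjusted p = 0.0184) fell; VTN, TTR and AHSG were named after their values were seen. After removal of the GC trend, FGA was at 0.13, FGB at 0.19, VTN at 0.30 and AMBP at -0.24. FGG (0.085), AFP (0.012) and AHSG (-0.25) lost their calls with that trend removed. The call was also lost by AFP without NC replicate 2 (0.15) and by AHSG without NC replicate 3 (-0.27) or RAC3 replicate 3 (-0.26). SERPINA1 was expressed (90.7 CPM in NC and 88.4 CPM in RAC3 on average), whereas HP, SERPINC1 and FETUB were at or below 0.358 CPM in every sample.

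Of 16 markers of other cell types, 7 were tested, 1 was called higher and 3 lower. Their summed level was 805.66, 773.5 and 758.4 CPM in NC and 595.6, 659.7 and 651.2 CPM in RAC3, most of it KRT19 (675, 650.3 and 630.3 against 487, 545 and 539 CPM), which fell (-0.32, adjusted p = 4.14e-05). CD14 (-0.37, adjusted p = 0.00197) and COL1A1 (-0.22, adjusted p = 0.0242) fell, and CD68 (0.47, adjusted p = 0.0418) rose. Removal of the GC trend left KRT19 at -0.14 and CD14 at -0.24, and COL1A1 lost its call (-0.045). Calls were also lost by COL1A1 without NC replicate 1 or 3 or RAC3 replicate 1 or 3 (-0.21 to -0.20) and by CD68 without NC replicate 3 or RAC3 replicate 1 or 2 (0.32 to 0.49). Markers of a type did not go together. Beside COL1A1, the stromal marker COL3A1 did not pass the test (adjusted p = 0.826). ACTA2 and DCN, also stromal, had 7 counts or fewer in every sample. KRT7, a biliary marker like KRT19, had 33 counts in RAC3 replicate 2 and 5 or fewer in every other sample. PTPRC, an immune marker like CD14 and CD68, had 9 counts or fewer in every sample. COL3A1, ACTA2, DCN, KRT7 and PTPRC were named after their values were seen. Of the intestinal markers, FABP2, SI and MUC2 were at 3 counts or fewer in every sample. The transcription factor gene CDX2, in contrast, stood at 43.9, 36.4 and 35.4 CPM in NC and 33.1, 34.1 and 34.7 CPM in RAC3, without overlap. The log2 fold change of CDX2 was -0.18 (adjusted p = 0.104). CDX2 was called lower without NC replicate 3 (-0.25), but was at -0.085 without NC replicate 1 and -0.063 with the GC trend removed. Of the endothelial markers, CDH5 was at 3 counts or fewer and VWF at 6 or fewer, whereas PECAM1 had 41, 34 and 51 counts in NC and 50, 55 and 35 in RAC3 (log2 fold change 0.11, adjusted p = 0.785, of opposite sign without NC replicate 2 or RAC3 replicate 2); CDX2 and PECAM1 were named after their values were seen. The part of these markers in the members' differences was not tested.

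The share of counts on the 13 mitochondrial genes was 2.09%, 2.03% and 1.96% in NC and 2.42%, 2.39% and 2.28% in RAC3, so it was higher in each RAC3 sample. Over all genes, 46.5% of those called were higher with TMM scaling, 65.4% with library size alone and 60.3% from FPKM with limma, while the members' count stayed at 2 higher and 4 lower under each.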

How the data were processed

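Counts of reads or fragments per gene and FPKM per sample were used as deposited by the authors. The submitters' processing notes name Bowtie2 2.2.8, HISAT2, StringTie 1.3.1 and DESeq2, with no role or order; the genome build, the annotation and the use of strand are not given in the sources used here. The authors' group means of FPKM, which hold 0.001 in place of 0, were not used. A symbol was missing for 617 genes, and 3760 genes had no count in any sample. GENCODE release 29 held 20089 of the identifiers and lacked 243.

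In R 4.3.3, counts were filtered by filterByExpr, scaled by TMM and tested with edgeR 4.0.16 (quasi-likelihood test, two-sided, no covariate), and p-values were adjusted by Benjamini-Hochberg over all 12941 tested genes; every adjusted p is from this test unless another tool is named. The biological coefficient of variation was 0.0533. The main edgeR fit was tested on simulated counts that held no GC trend, and the alternatives were not tested on simulated data. A list's counts and median are descriptions. The members and lists were chosen with earlier results of these data known. Genes named are RAC3, the members, genes overlapping them, from each list at most 3 higher and 3 lower by p with a mean of at least 10 counts, and ALB, AFP and HNF4A; others were named after their values were seen, and some genes the rule takes are not reported here.

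Alternatives were DESeq2 1.42.0 (size factors or its Wald test), upper quartile or library size scaling, limma-voom and FPKM with limma 3.58.1 (log2 of FPKM plus 0.1), stricter or no filtering of low counts, the replicate number as a block, each sample left out, and each library's GC trend (GC content of the longest transcript, lowess span 0.3) removed. Removal of the length trend, alone or with the GC trend, was chosen after the data were seen. Promoter sequences are from RefSeq (GRCh38.p14).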

Additional observations from a re-analysis of the deposited data

How the results depend on the processing

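The members' counts of 2 called higher and 4 called lower stayed within 1.5 times under every alternative test, scaling and filter; at a fold above 1.5 with an unadjusted p under 0.05, both counts were 0, and 1 member passed with no filter on low counts, with at least 10 counts in every sample, and without NC replicate 2, NC replicate 3 or RAC3 replicate 2 (APOA2 in each) or RAC3 replicate 3 (APOC3). APOA2, APOB, APOC1, APOE and MTTP kept their direction and call in all 19 alternatives, APOC3 kept its call in 9, and APOH gained one in 3. Over leave-one-out fits the log2 fold change ran from -0.63 to -0.53 for APOA2, 0.15 to 0.23 for APOB, -0.41 to -0.32 for APOC1, -0.46 to -0.40 for APOE and 0.23 to 0.28 for MTTP. The sign turned for APOA1 without RAC3 replicate 2 (leave-one-out range -0.020 to 0.19), and for HNF4A without NC replicate 2 (-0.024 to 0.082) and with the length trend removed (-0.0098). P4HB turned positive with library size scaling (0.036), FPKM with limma (0.030), the length trend removed (0.016), the GC trend removed (0.12), the GC and length trends removed (0.13) and without RAC3 replicate 1 (-0.041 to 0.015). PECAM1 turned negative from FPKM with limma (-0.40) and without NC replicate 2 or RAC3 replicate 2 (leave-one-out range -0.014 to 0.19). Among the genes named one by one, 1091 alternative results kept their side of the threshold, 151 lost a call, 18 gained one and 13 changed sign. Depth limits APOA4, APOM and APOC3.

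FPKM with limma called 2162 genes in place of 3691. Counts of called genes in the lists moved by over 1.5 times as follows. Assembly partners called higher, 5 with TMM and edgeR, numbered 8 with library size scaling and 3 with DESeq2, under removal of the GC trend or of the GC and length trends; those called lower, 3 with edgeR, numbered 1 with library size scaling and 0 from FPKM with limma. Receptors called higher, 0 with edgeR, numbered 1 with library size scaling and 2 with the GC trend or the GC and length trends removed. Lipases and exporters called higher, 1 with edgeR, numbered 0 under removal of the GC trend or of the GC and length trends and from FPKM with limma, which called 2 of them lower in place of 5. Other apolipoprotein genes called higher numbered 1 in place of 2 from FPKM with limma. Transcription factors called higher, 5 with edgeR, numbered 3 with DESeq2 and 2 from FPKM with limma; those called lower, 13 with edgeR, numbered 6 from FPKM with limma and 5 with the GC trend or the GC and length trends removed. Markers of other cell types called higher, 1 with edgeR, numbered 0 with DESeq2 and from FPKM with limma. Leaving out single samples gave 2 to 3 assembly partners called higher and 1 to 3 lower, 0 to 1 receptors higher, 0 to 1 lipases and exporters higher, 1 to 3 other apolipoprotein genes higher, 2 to 4 transcription factors higher and 0 to 1 markers of other cell types higher. The cause was not tested.

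The replicate numbers did not pair the samples: the deviations of samples with the same number from their group means correlated at -0.087, -0.046 and -0.021 over 11221 genes. With the replicate block, 3261 genes were called in place of 3691, the members called stayed at 2 higher and 4 lower, and assembly partners called higher numbered 2 in place of 5. With the GC trend removed with replicate block, assembly partners called higher numbered 3, receptors called higher 2, lipases and exporters called higher 0, transcription factors called lower 5, and the log2 fold change of P4HB was 0.12.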
